A study of Mus musculus with 2 samples.

Results

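The genes described here are the secretagogue receptors of the pancreas and the proteins that release and recapture calcium behind them. They were chosen by name as 9 genes (Cckar, Chrm1, Chrm3, Sctr, Vipr1, Itpr1, Itpr2, Itpr3 and Atp2a2), and every probe set whose platform annotation gave one of these symbols alone was taken. This found 20 probe sets of 8 genes among 45037 probe sets that were not array controls. Itpr1 was not analysed here.

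RNA came from whole pancreas of male C57BL/6J offspring aged 10 weeks. In the threonine-deficient group the dams had eaten a diet low in the essential amino acid threonine from embryonic day 12.5 to 14.5, and in the control group they had received control diet over the same days. Both groups were weaned at 3 weeks and then kept on control diet, and the young themselves received no treatment after birth. Each group was 1 pool of RNA on 1 array, and how many animals made up a pool is not stated in the labels. No value therefore has a replicate, no p-value can be given, and every difference below is between these 2 pools.

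Pancreatic acinar cells store digestive enzymes and release them when a hormone or nerve signal reaches the receptors on their basal side. Cholecystokinin and acetylcholine act on receptors coupled to Gq, which activates phospholipase C. The enzyme makes inositol trisphosphate (IP3), and IP3 opens IP3 receptors, calcium channels of the endoplasmic reticulum. The calcium that leaves through them triggers exocytosis of the enzyme granules, and pumps of the SERCA family return it to the store. Secretin and vasoactive intestinal peptide (VIP) act on receptors coupled to Gs, which raise cyclic AMP in acinar and duct cells.

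Values are linear MAS5 signals, a MAS5 signal being 1 number for the probes of a probe set, and each array had been scaled as a whole. Signals under 264.9, taken as the larger of both arrays' 60th percentiles, were treated as too dim to order and were raised to this floor before log2 was taken. A probe set at the floor on 1 array gives a bound ("at least"), and one under it on both gives no fold. Log2 ratios are given as threonine-deficient over control. The local spread beside it is the median absolute deviation, scaled as a standard deviation, among the log2 ratios of the 500 probe sets nearest in mean signal. It describes how far probe sets of like brightness scattered and is not an error between animals. Probe sets differ in brightness for the same amount of RNA, so the signal of 1 probe set is not set against that of another. In bulk tissue, fewer cells of a type and less RNA per cell cannot be told apart.

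None of the members differed 2-fold between the pools. Of the 20 probe sets, 12 exceeded the floor in 1 or both pools and 11 of them in both, representing 6 genes, while the 8 others included every probe set of Sctr and Vipr1. A 2-fold difference in either direction was counted in 0 of these 12, where 2.37% of all 19818 probe sets above the floor passed it. At the lower threshold of 1.5-fold, 0 members were higher and 1 was lower, against 8.01% and 5.55% of all probe sets. The log2 ratios of the 12 ran from −0.61 to 0.34 with a median of −0.17, beside a median of 0.01 over all probe sets above the floor. Lower values in the threonine-deficient pool were seen in 8 and higher values in 4, where 48.8% of all probe sets were lower. These 8 come from 4 genes, and probe sets of 1 gene may read the same transcripts, so they cannot be counted as 8 separate readings.

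**Figure D1:**
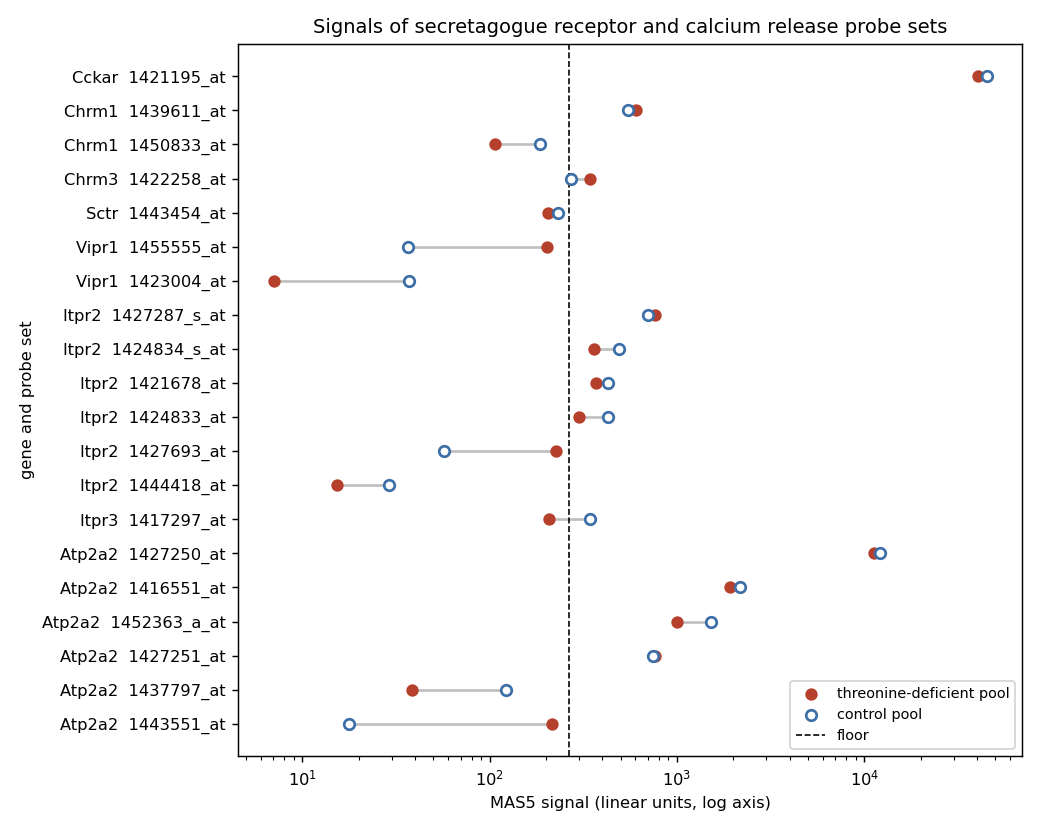
MAS5 signal (log axis) of each of the 20 probe sets in the threonine-deficient pool (filled points) and the control pool (open points), with the floor of 264.9 as a dashed line. The pools' signals for Cckar nearly coincide far above the floor, and 8 probe sets lie under the floor in both pools.

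Cckar, the receptor for cholecystokinin on rodent acinar cells, was read by 1 probe set with a signal of 40544 in the threonine-deficient pool and 45041 in the control pool. Both signals were far above the floor. The log2 ratio was −0.15, a 1.11-fold lower signal, against a local spread of 0.11. It was 1 of 2 members past their local spread, which 27.0% of all probe sets above the floor passed in either direction.

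Chrm3 encodes the M3 muscarinic receptor, the main receptor for acetylcholine on acinar cells in mice together with M1. Its single probe set had a signal of 345 in the threonine-deficient pool and 272 in the control pool. The control value lay just above the floor, and the log2 ratio of 0.34 was smaller than the local spread of 0.61. Chrm1, the M1 receptor gene, was read above the floor by 1 of its 2 probe sets, 1439611_at. This had 603 signal units in the threonine-deficient pool and 551 in the control pool, giving 0.13 on the log2 scale where the local spread was 0.41. The other Chrm1 probe set, 1450833_at, was under the floor in both pools, with signals of 107 in the threonine-deficient and 185 in the control pool. Neither muscarinic gene thus differed by more than probe sets of like signal scatter.

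Sctr and Vipr1, the receptors of the cyclic AMP arm among the 9 genes, were too dim to compare. Sctr, the secretin receptor gene, had signals of 205 in the threonine-deficient pool and 230 in the control pool, just under the floor. Vipr1, which encodes the VIP receptor VPAC1, was read by 2 probe sets that went opposite ways. One, 1455555_at, had 201 signal units in the threonine-deficient pool and 36.8 in the control pool, and the other, 1423004_at, had 7.06 in the threonine-deficient pool and 37.0 in the control pool. At that brightness the local spread was 1.67 and 1.96 on the log2 scale, so no level or direction can be read for Vipr1. A signal under the floor does not show that a receptor is absent, since no detection calls were used.

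Itpr2 encodes the type 2 IP3 receptor, which with type 3 carries most of the IP3-driven calcium release of mouse acinar cells. It had 6 probe sets, 4 of them above the floor on both arrays. The brightest, 1427287_s_at, had 761 signal units in the threonine-deficient pool and 698 in the control pool, a log2 ratio of 0.12. The other 3 were lower in the threonine-deficient pool. Probe set 1424834_s_at had 360 there and 492 in the control pool (log2 ratio −0.45), and 1421678_at had 368 in the threonine-deficient and 426 in the control pool (−0.21). Probe set 1424833_at had 298 in the threonine-deficient and 429 in the control pool, a log2 ratio of −0.53. Each of the 4 lay within its local spread, which ran from 0.35 to 0.56. The median over the 4 was −0.33, so the sign for Itpr2 depends on whether the brightest probe set or the median is taken. The suffix _s_at marks probe sets that may also read other transcripts. The 2 dimmest Itpr2 probe sets, under the floor in both pools, had signals of 227 and 15.3 in the threonine-deficient pool, against 57.1 and 29.0 in the control pool.

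Itpr3, the type 3 IP3 receptor gene, was read by 1 probe set with a signal of 207 in the threonine-deficient pool and 343 in the control pool. The threonine-deficient value was under the floor, so the signal was at least 1.29-fold lower there, a log2 bound of −0.37. With the deposited signals and no floor the log2 ratio of −0.73 was about as large as the local spread of 0.71.

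Atp2a2 encodes SERCA2, the pump that refills the calcium store of the endoplasmic reticulum. Of its 6 probe sets, 4 exceeded the floor in both pools. The brightest, 1427250_at, had 11265 signal units in the threonine-deficient pool and 12148 in the control pool. The log2 ratio of −0.11 was within the local spread of 0.15. Probe set 1416551_at had 1906 in the threonine-deficient pool and 2166 in the control pool, giving −0.18 on the log2 scale where the local spread was 0.23. Probe set 1427251_at had 763 in the threonine-deficient pool and 746 in the control pool, a log2 ratio of 0.03.

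Among the 11 probe sets above the floor in both pools, the largest ratio was that of the fourth Atp2a2 probe set, 1452363_a_at, with 1000.3 signal units in the threonine-deficient pool and 1525 in the control pool. It was 1.52-fold lower, with a log2 ratio of −0.61 and a local spread of 0.30. With the floor at 264.9 this was the only member past 1.5-fold, while Itpr3, a bound there, also passed it with no floor, and the other 3 readings of the same gene ranged from −0.18 to 0.03. The suffix _a_at marks a probe set that reads several transcripts of 1 gene, and Atp2a2 is known to be spliced at its 3′ end into a muscle and a general form. Which forms these probe sets read was not tested, since probe positions were not used here. The 2 dim Atp2a2 probe sets had signals of 38.3 and 215 in the threonine-deficient pool, against 122 and 17.8 in the control pool, in opposite directions and under the floor.

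**Figure D2:**
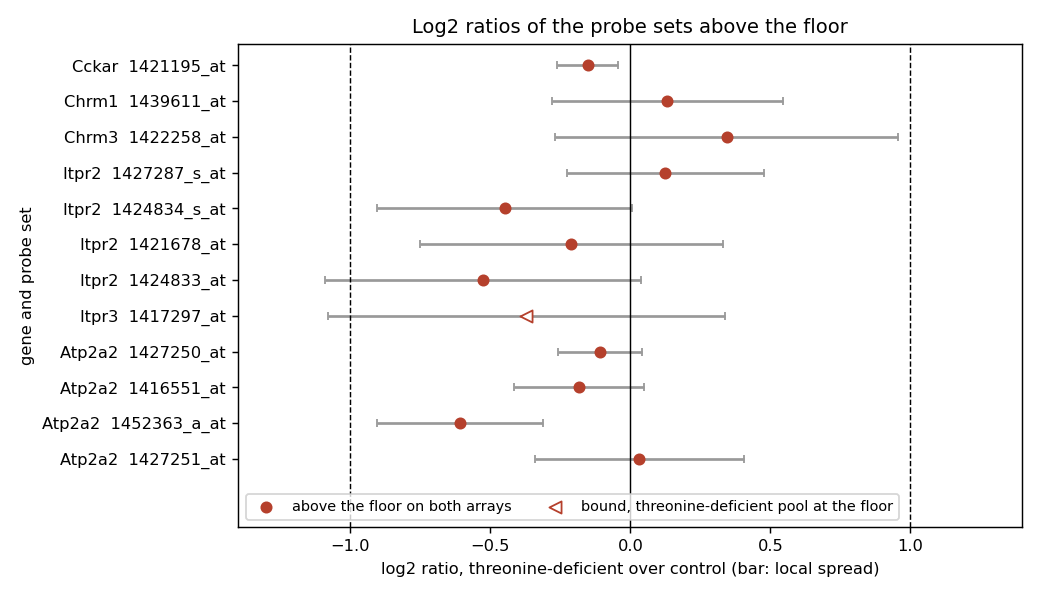
Log2 ratio (threonine-deficient over control) for the 12 probe sets that exceeded the floor in 1 or both pools, with bars of plus and minus the local spread and dashed lines at 2-fold. All points lie between −0.61 and 0.34, the bars of Cckar and of Atp2a2 1452363_a_at do not reach 0, and the open triangle of Itpr3 is a bound.

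Repeat readings of Itpr2 and of Atp2a2 spanned about as much as those of other genes with as many probe sets above the floor. The 4 probe sets above the floor spanned 0.65 on the log2 scale for Itpr2 and 0.64 for Atp2a2. Over the 239 genes with 4 such probe sets, these included, the median span was 0.61, with quartiles of 0.37 and 0.92, and 45.2% of them spanned more than Itpr2. Spread fell with signal: it was 0.56 for probe sets with a mean signal from the floor to 500, 0.40 from 500 to 1000, 0.26 from 1000 to 4000 and 0.10 above 16000. Among the members above the floor, Cckar and the brightest probe set of Atp2a2 had the smallest local spread, and Chrm3 and Itpr3 the largest. Among the transcripts added as controls, 9 hybridisation control probe sets above the floor ranged from −0.32 to −0.06, which includes the values of Cckar and of the brightest Atp2a2 probe set. The 12 polyadenylated control probe sets above the floor ranged from −0.39 to 0.21 with a median of 0.02. The 36 other control probe sets above the floor ranged from −0.62 to 0.59 with a median of −0.001. The kinds were told apart by capitalised parts of probe set names, so the 36 may hold further probe sets of either kind. Whether the controls share a shift was not tested.

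**Figure D3:**
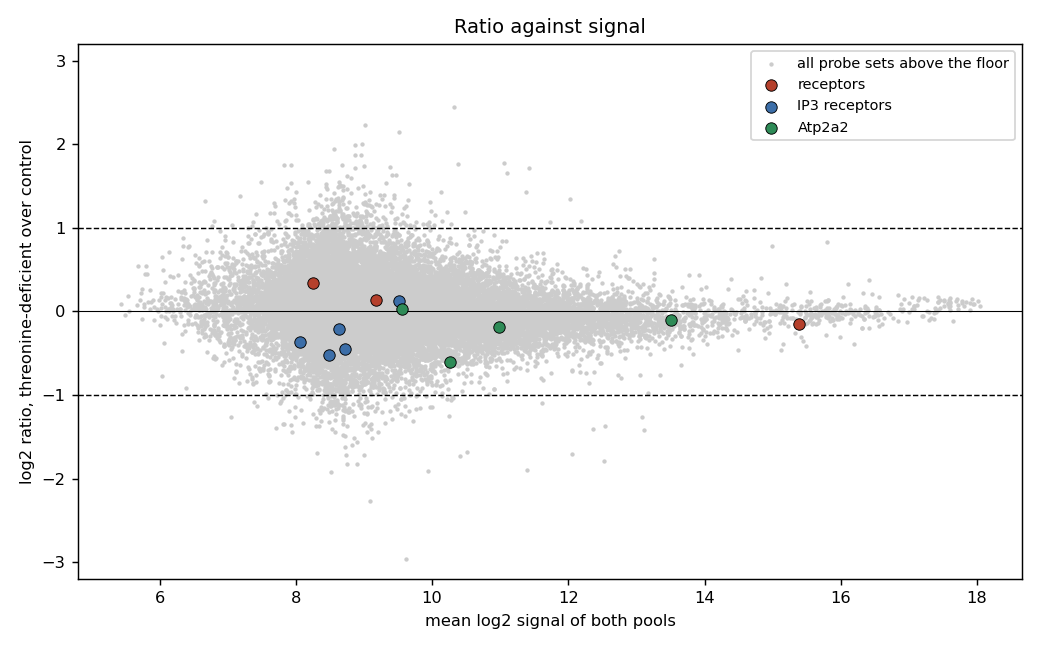
Log2 ratio (threonine-deficient over control) against the mean log2 signal of both pools for 19818 probe sets above the floor (grey) and for the receptors, IP3 receptors and Atp2a2 (coloured), with dashed lines at 2-fold. The members lie inside the cloud of probe sets at every signal, and the cloud narrows as signal grows.

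The genes around the members were read from 7 lists with 178 genes in all, of which 156 had a probe set and 110 were above the floor in their brightest probe set. Past 2-fold, 0 of these 110 were higher and 3 were lower in the threonine-deficient pool, where 1.28% of all 10758 genes above the floor were higher and 0.874% lower. At least 1.5-fold, 5 were higher and 8 lower, together 11.8%, against 12.6% of all genes. The median log2 ratio was −0.01, beside 0.00 over all genes.

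The 3 genes past 2-fold were Sct, Adcyap1 and Tpcn1. Sct, which encodes the ligand secretin, had a signal of 153 in the threonine-deficient pool and 641 in the control pool and was at least 2.42-fold lower. Adcyap1 encodes PACAP, a neuropeptide of the VIP family, and had 83.7 signal units in the threonine-deficient pool and 532 in the control pool, at least 2.01-fold lower. Its other probe set was under the floor in both pools. For these ligand genes the threonine-deficient value was under the floor, and the local spread was 0.63 for Sct and 0.73 for Adcyap1. Tpcn1, which encodes a two-pore channel of endosomes and lysosomes that takes part in calcium release by NAADP, was above the floor on both arrays. It had 480 signal units in the threonine-deficient pool and 1078 in the control pool, 2.25-fold lower (log2 ratio −1.17, local spread 0.39), and its other 2 probe sets were under the floor.

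Among ligands and their turnover, 3 of 11 genes were above the floor, and besides Sct and Adcyap1 this was Bche, a cholinesterase, with a log2 ratio of −0.10. Other Bche probe sets gave 0.02 and, with the control pool at the floor, a bound of 0.34. Cck and Vip were under the floor in both pools, with signals of 62.3 and 55.6 in the threonine-deficient pool, against 120 and 263 in the control pool. Of the other receptors, 7 of 18 genes with a probe set were above the floor, with a median log2 ratio of −0.07. Sstr2, a somatostatin receptor gene that couples to Gi, had 1068 signal units in the threonine-deficient pool and 603 in the control pool (0.83). Vipr2, the gene of the second VIP receptor, had 295 in the threonine-deficient pool and 462 in the control pool (−0.65, local spread 0.60). Grpr, the receptor gene for gastrin-releasing peptide, had 270 in the threonine-deficient pool and 366 in the control pool (−0.44, local spread 0.64).

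The steps between receptor and store showed small differences in both directions. G proteins and phospholipase C had 22 genes above the floor, with 0 past 1.5-fold, 12 higher and 10 lower, and a median of 0.05. The largest ratios above the floor on both arrays were those of Rgs2, an inhibitor of Gq signalling (0.44), Plce1, a phospholipase C gene (0.42), and Grk6, a receptor kinase gene (−0.42). The next brightest probe set of Rgs2 went the opposite way at −0.14, and another of Grk6 did so at 0.35. The remaining Rgs2 probe sets, with the control pool at the floor, gave bounds of 0.53 and 0.02. The cyclic AMP arm had 19 genes above the floor, 0 higher and 1 lower by 1.5-fold, and a median of 0.01. The lower gene was Adcy5, an adenylyl cyclase (−0.78). Another of its probe sets, with the threonine-deficient pool at the floor, gave a bound of −0.27, and the rest were under the floor. Rapgef3, an exchange factor opened by cyclic AMP, had 0.58, with its other probe sets under the floor in both pools. The anchor protein gene Akap1 had 0.54 in its brightest probe set and 0.21 in the other.

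Among calcium stores and entry, 22 genes were above the floor, with a median log2 ratio of −0.06, 9 higher and 13 lower. At 1.5-fold, 1 was higher and 2 were lower, Tpcn1 and the mechanically gated channel gene Piezo1 (a bound of −0.82). The higher gene was Orai2, of the family of store-operated calcium channels, at 0.77 in its brightest probe set and −0.14 in the other. Atp2a3, which encodes the related pump SERCA3, had 629 signal units in the threonine-deficient pool and 425 in the control pool, 0.56 on the log2 scale where the local spread was 0.51. Its other probe set, with the control pool at the floor, gave a bound of 0.58. The 15 IP3 receptor partners above the floor had a median of 0.11. Homer1, a scaffold gene, was at 0.85 and the only one past 1.5-fold, with its other probe sets under the floor in both pools. Lrmp, a gene for a membrane protein of the endoplasmic reticulum, was at 0.34, and Itpkc, an IP3 kinase gene, at 0.33. The 22 calcium effectors above the floor had a median of −0.02, with 2 genes higher and 2 lower by 1.5-fold. The higher genes were the protein kinase D genes Prkd2 (0.84) and Prkd1 (0.60), both bounds with the control pool at the floor, and another probe set of Prkd2 gave a bound of −0.61. Prkcz, an atypical protein kinase C gene, had −0.76 in its brightest probe set and −0.06 in another, Camk2b, a calmodulin kinase gene, had −0.59, and the related Camk2g had 0.31.

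**Figure D4:**
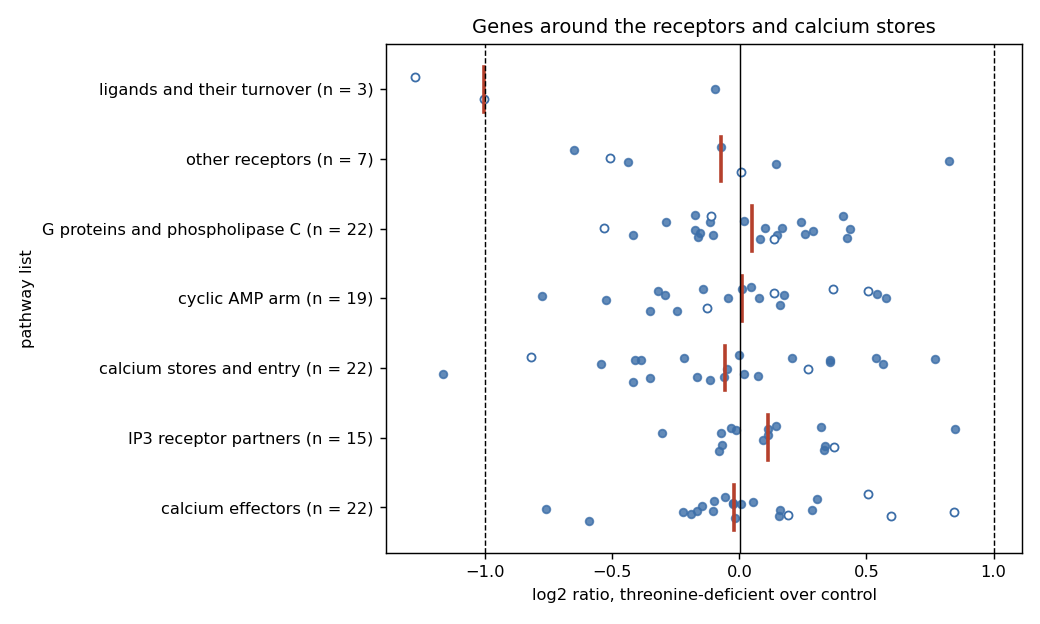
Log2 ratio (threonine-deficient over control) for the 110 genes above the floor in the 7 lists around the members, each point a gene in its brightest probe set. Open points are bounds with 1 pool at the floor, red bars are list medians, the solid line is the median of all genes and dashed lines mark 2-fold. Medians lie between −0.07 and 0.11 except for the 3 ligand genes.

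Markers of several cell types were read beside the members. Acinar markers, 16 of 16 measured genes above the floor, had a median log2 ratio of 0.11 and ranged from −0.27 to 0.29, with 13 higher. Their summed signal was 2306584 in the threonine-deficient pool and 2184218 in the control pool. Cel, one of them, had 262788 signal units in the threonine-deficient pool, where the largest signal of any probe set was 275999. Whether signals so near the top of the range are compressed was not tested. Duct markers had 7 of 10 above the floor, 3 higher and 4 lower, with a median of −0.09 and a range from −0.33 to 2.14. They summed to 31600 in the threonine-deficient and 33799 in the control pool. The brightest of them were Krt8 (log2 ratio −0.15), Krt18 (−0.33) and Muc1 (−0.12), so the sums mostly follow these genes. Car2, a carbonic anhydrase gene of the duct list, had 1541 signal units in the threonine-deficient pool and 349 in the control pool. Its log2 ratio was 2.14, with a local spread of 0.34. Sox9, a transcription factor gene, was at 0.89 in its brightest probe set, with a local spread of 0.62. Another Sox9 probe set, with the control pool at the floor, gave a bound of 0.33, and the remaining one was under the floor in both pools. Islet markers had 11 of 12 above the floor, all 11 lower, with a median of −0.41, a range from −1.09 to −0.02 and sums of 146805 in the threonine-deficient and 179138 in the control pool. Adipocyte markers had 5 of 6 above the floor, all 5 lower, with a median of −1.06, a range from −1.42 to −0.57 and sums of 13880 in the threonine-deficient and 31224 in the control pool. Smooth muscle markers had 3 of 8, nerve and Schwann cell markers 2 of 8, and endothelial markers 6 of 8 above the floor, with medians of −0.23, 1.23 and 0.36. Their ranges were −0.91 to −0.01 for smooth muscle, 0.74 to 1.72 for nerve and Schwann cells, and −0.69 to 0.57 for endothelium. The nerve and Schwann values were those of Sox10 (0.74) and of Dbh (1.72), the latter a bound with the control pool at the floor. The other probe sets of both genes were under the floor in both pools. The smooth muscle median of −0.23 was that of Actg2, and the islet end of −1.09 that of Slc2a2. Both are bounds with the threonine-deficient pool at the floor. Neurod1, Cidec and Kdr also gave bounds. The part of these cell types in the values of the members and their ligands was not tested.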

How the data were processed

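The deposited values were linear signal intensities per probe set made by the authors with MAS5, per the submitters' processing notes, without a version. Biotin-labelled cRNA from 1 pool per group was hybridised to an Affymetrix mouse array, per the labels' protocols. Of 45101 probe sets, 64 array controls were left out, 34945 carried 1 symbol, 932 several and 9160 none. Symbols were updated through gene identifiers to RefSeq (34741 matched, 204 kept). No genome build is named for the values, so no positions are given.

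From these intensities log2 ratios were computed with numpy 2.4.6 and pandas 2.3.3. Lists were read in each gene's brightest probe set. All members were named. Of each pathway list the 3 genes with the largest absolute ratio above the floor on both arrays and all genes past 2-fold were named, and of each marker list the counts and range. Cck, Vip, Piezo1, Prkd1, Prkd2 and all cell type marker genes named were added after their values were seen. The scripts were checked on simulated arrays with set differences. The number of arrays limits the precision. Members and lists were chosen with earlier results of these data known. Alternatives were other centring (median, or a lowess trend from statsmodels 0.14.6), floors at the 50th and 75th percentiles, none, or a pseudocount, other thresholds, and other choices of probe sets.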

Additional observations from a re-analysis of the deposited data

How the results depend on the processing

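With no replicates, a single reading was counted as stable when it moved by less than its local spread, and a median or span when it moved by less than 0.1. Of 88 values of the 12 member probe sets under 8 alternatives, 49 equalled the reported one, since another floor or set of probe sets leaves a reading above the floor as it is. The other 39, mostly from centring and the pseudocount, all moved by less than the local spread with 0 changes of sign. A pseudocount or another floor cannot turn the sign of a ratio, and median centring applied 1 small shift to all. Mainly the lowess trend could thus have turned a sign. Itpr3 was at −0.73 with no floor and with the floor at the 50th percentile, past 1.5-fold. The members' median ranged from −0.18 to −0.11. At 1.5-fold and the main floor 1 member was called. With no floor, 20 probe sets counted and 5 passed 2-fold, 3 higher and 2 lower, all 5 of them under the floor on both arrays. The share of all probe sets past 2-fold with no floor was not computed, so the count of 5 has no background beside it. With the floor at the 75th percentile 7 member probe sets were left. The span of Atp2a2 readings was 5.26 with no floor, 0.52 with a pseudocount and 0.22 without shared suffixes, and that of Itpr2 was 2.91, 0.39 and 0.32. Of the list genes, 28 of 156 were past 2-fold with no floor. With no floor over those above the main floor, an alternative chosen after seeing the data, 12 of 110 were. Counts were 8 and 1 with floors at the 50th and 75th percentiles, and 1 with the median over probe sets. The genes counted change with the floor. The share of all genes past 2-fold at these settings was not computed, so these counts have no background beside them. The median of the 3 ligand genes was −2.06 with no floor over those above the main floor and −0.10 with the higher floor. It was −1.12 with a pseudocount and −0.50 over probe sets. With the lower floor more ligand genes counted and the list median was −0.36, while Sct was at −1.80 and Adcyap1 at −1.53. The median of other receptors was −0.24 after lowess, 0.036 with no floor and 0.14 with either other floor. That of the cyclic AMP arm was −0.19 with the higher floor, and that of IP3 receptor partners 0.00 over probe sets. Adcyap1 fell short of 2-fold after median centring (−0.998), with the higher floor (−0.05) and over probe sets (−0.50), Sct with the higher floor (−0.32), and Tpcn1 with a pseudocount (−0.85) and over probe sets (0.00), 2 of which were at the floor. Causes beyond the signals under the floor were not tested. No paired analysis was possible because each group had 1 pooled sample and no test was run. Leaving out a replicate was not possible for the same reason.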
